A study of Mus musculus with 2 samples.

Results

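The granins and the proteins that process prohormones were followed here through 10 genes: the granins Chga, Chgb and Scg2, their relatives Scg3 and Vgf, the convertases Pcsk1 and Pcsk2, the carboxypeptidase Cpe, and the convertase-binding proteins Scg5 and Pcsk1n. They were taken by symbol from a list, and the rule for membership uses no measured value, although the list was drawn up with earlier results of these data known. All 10 were found among the 55536 annotated genes of the gene table, and they accounted for 29 of the 141767 transcripts of the second transcript table. Both gene tables and all 4 transcript tables listed every one of them.

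The libraries came from 2 female mice of the strain B6CASTF1/J, aged 36 days, with 1 library of the left cerebral cortex for each mouse. This strain is the first-generation hybrid of C57BL/6J and CAST/EiJ, supplied by The Jackson Laboratory, and each library is labelled as a mouse of its own. Both libraries were made from 300 ng of total RNA after removal of ribosomal RNA, kept strand and carried ERCC spike-ins, and no treatment, other age or other tissue stood beside them. The mice are called replicate 2 and replicate 1 after their labels, and nothing in the labels sets them apart by condition, so no p-value was computed and differences below describe these mice only.

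Neurons and endocrine cells pack peptide hormones and neuropeptides into dense-core vesicles. Granins are acidic proteins that aggregate in the lumen of these vesicles and are themselves cut into peptides. The convertases cut prohormones after pairs of basic residues, carboxypeptidase E then trims the basic residues that remain at the end, and Scg5 and Pcsk1n encode small proteins that bind a convertase before or while it becomes active.

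The cortex held most of these messages at high levels. The median level of the 10 genes was 138 TPM (a level corrected for length and scaled to the same total in each library), against 15.3 TPM for the 12754 nuclear protein-coding genes with at least 1 TPM in both libraries, called expressed below. Of the 10 genes, 7 had at least 100 TPM in both libraries, as did 6.29% of the expressed protein-coding genes. Their TPM summed to 2060 in replicate 2 and 2189 in replicate 1.

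Chga, which encodes chromogranin A, lies on chromosome 12 at 102554969 to 102565028 on the plus strand (mm10, as all gene positions here, from GENCODE M21). It had 74.9 TPM in replicate 2 and 76.8 TPM in replicate 1 (75.9 ± 1.38, SD, n = 2). Chgb, the chromogranin B gene on chromosome 2 at 132781278 to 132795079 (plus strand), had 114 TPM in replicate 2 and 119 TPM in replicate 1 (116 ± 3.48). In these TPM, Chga and Chgb were the steadiest of the set, with an SD of 1.82% of the mean for Chga and 2.99% for Chgb. That rank rests on the scaling. With TPM taken over protein-coding genes alone, the SD was 10.7 on a mean of 171 for Chga and 13.2 on 262 for Chgb. For Pcsk2 it was then 0.808 on a mean of 308. Scg2, on chromosome 1 at 79434669 to 79440120 (minus strand), encodes secretogranin II, from which the peptide secretoneurin is cut. It had 87.9 TPM in replicate 2 and 101 TPM in replicate 1 (94.5 ± 9.31, SD, n = 2). Its range lay below that of Chgb and above that of Chga.

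Scg3, on chromosome 9 at 75643189 to 75684056 (minus strand), encodes secretogranin III, which binds chromogranin A and the vesicle membrane. It reached 131 TPM in replicate 2 and 147 TPM in replicate 1 (139 ± 11.6, SD, n = 2). Vgf, on chromosome 5 at 137026392 to 137033351 (plus strand), encodes a peptide precursor that neurons induce with activity and neurotrophins, and it reached 145 TPM in replicate 2 and 160 TPM in replicate 1 (152 ± 10.4). The ranges of Vgf and Scg3 overlapped, so their order was not settled by these mice.

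The convertase genes were far apart in level. Pcsk2, on chromosome 2 at 143546156 to 143816285 (plus strand), had 129 TPM in replicate 2 and 144 TPM in replicate 1 (137 ± 10.6, SD, n = 2), from 15042 counts in replicate 2 and 12354 in replicate 1. Pcsk1, on chromosome 13 at 75089826 to 75134861 (plus strand), had 14.2 TPM in replicate 2 and 18.8 TPM in replicate 1 (16.5 ± 3.23), from 1713 counts in replicate 2 and 1715 in replicate 1. Pcsk1 was thus the lowest of the 10 genes in both mice and sat near the median of the expressed protein-coding genes, at rank 6098 of 12754. Its SD, 19.6% of the mean, was the widest of the set in these TPM. Over protein-coding genes alone, Pcsk1n was wider relative to its mean, with an SD of 74.2 on 467 against 4.32 on 37.0 for Pcsk1. The ratio of Pcsk2 to Pcsk1 within a library was 9.10 in replicate 2 and 7.69 in replicate 1 (8.39 ± 1.00, SD, n = 2).

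Cpe stood at the other end. It lies on chromosome 8 at 64592542 to 64693054 (minus strand) and had 927 TPM in replicate 2 and 985 TPM in replicate 1 (956 ± 41.6, SD, n = 2), from 47008 counts in replicate 2 and 36568 in replicate 1. Its mean ranked 12 among the 12754 expressed protein-coding genes. Cpe supplied 45.0% of the summed TPM of the 10 genes in each mouse and exceeded Pcsk1 by 65.3-fold in replicate 2 and 52.5-fold in replicate 1. Its nearest neighbours in mean level were Hspa8, a constitutive chaperone, with 928 TPM in replicate 2 and 1035 TPM in replicate 1, and Eef1a1, a translation elongation factor, with 941 TPM in replicate 2 and 931 TPM in replicate 1. The neighbours of Pcsk1 were Tpgs2, with 15.3 TPM in replicate 2 and 17.6 TPM in replicate 1, and the ribosomal protein pseudogene Rpl9-ps6, with 18.7 TPM in replicate 2 and 14.3 TPM in replicate 1. With 1 group of samples these are genes of like level, and no likeness of pattern was measured.

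The convertase-binding proteins ranked next below Cpe. Scg5, on chromosome 2 at 113776362 to 113829121 (minus strand), encodes the chaperone that Pcsk2 protein needs to mature, and it had 220 TPM in replicate 2 and 243 TPM in replicate 1 (232 ± 15.8, SD, n = 2). Pcsk1n, on chromosome X at 7919822 to 7924410 (plus strand), encodes proSAAS, an inhibitor of the Pcsk1 enzyme, and it had 217 TPM in replicate 2 and 194 TPM in replicate 1 (206 ± 16.3). Pcsk1n was the one gene of the 10 whose TPM was higher in replicate 2.

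**Figure D1:**
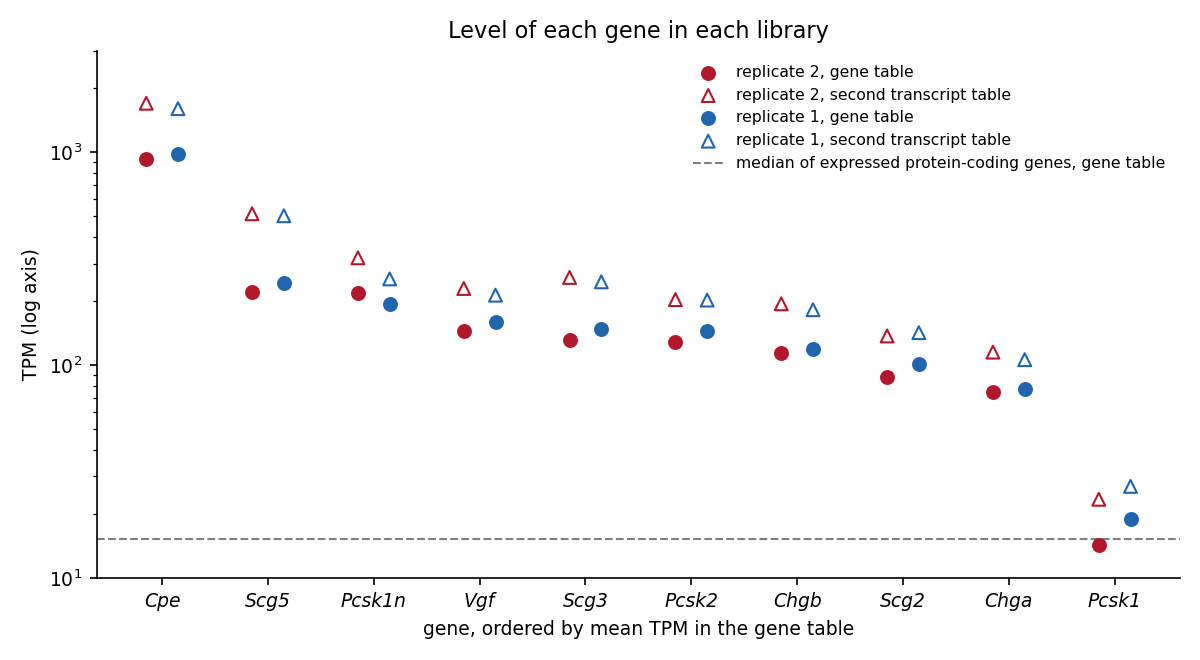
TPM of the 10 genes on a log axis, with filled circles for the gene table and open triangles for the second transcript table, replicate 2 left of replicate 1, and a dashed line at 15.3 TPM, the median of expressed protein-coding genes in the gene table. Cpe lies far above and Pcsk1 far below the other 8 genes in both tables and both mice.

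In the order of mean TPM, Cpe was followed by Scg5, Pcsk1n, Vgf, Scg3, Pcsk2, Chgb, Scg2, Chga and Pcsk1. The ranges over the mice overlapped for Vgf and Scg3 and for Scg3 and Pcsk2, and were apart for the other neighbours. Scg5 and Pcsk1n were barely apart, with 220 TPM as the lower Scg5 value and 217 TPM as the higher Pcsk1n value. The second transcript table, from another quantification of the same libraries, gave the same order of neighbours except that Scg3 (258 TPM in replicate 2 and 246 TPM in replicate 1) lay above Vgf (229 TPM in replicate 2 and 213 TPM in replicate 1). These sums include models not annotated as protein-coding. Such models held 27.4% of Scg3 in replicate 2 and 22.2% in replicate 1, and 0% of Vgf. Levels in that table were higher for every one of the 10 genes, from 1.31-fold for Pcsk1n in replicate 1 to 2.33-fold for Scg5 in replicate 2. The small structural RNA 7SL took 30.1% of all TPM in replicate 2 and 24.3% in replicate 1 in the gene table, and 0.000334% in replicate 2 and 0.000195% in replicate 1 in the second table.

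Each enzyme could be set beside its binding protein. Scg5 exceeded Pcsk2 by 1.71-fold in replicate 2 and 1.68-fold in replicate 1 (1.70 ± 0.0163, SD, n = 2), nearly the same value in both mice. In expected counts, which leave out length, the same ratio was 0.405 on average. The ratio of Pcsk1n to Pcsk1 was 15.3 in replicate 2 and 10.4 in replicate 1 (12.8 ± 3.51), the widest apart of the 11 ratios taken. In the second table Scg5 exceeded Pcsk2 by 2.51 ± 0.0320-fold and Pcsk1n exceeded Pcsk1 by 11.5 ± 2.94-fold, so the first of these ratios moved with the quantification by more than the mice differed. A model without a coding frame, Scg5-202, held 32.8% of Scg5 there in replicate 2 and 31.0% in replicate 1. The coding Scg5-201 had 345 TPM in replicate 2 and 347 TPM in replicate 1, against 199 TPM and 193 TPM for Pcsk2-201.

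Relative to Chga, Chgb stood at 1.53 ± 0.0180, Scg2 at 1.24 ± 0.100, Scg3 at 1.83 ± 0.119 and Vgf at 2.01 ± 0.101 (TPM ratios, SD, n = 2). All of these genes were above Chga in both mice. Cpe exceeded Pcsk2 by 7.17-fold in replicate 2 and 6.83-fold in replicate 1.

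The other enzymes of the pathway were lower than Pcsk2 and Cpe. Furin, a convertase of the Golgi in most cells, had 12.4 TPM in replicate 2 and 13.5 TPM in replicate 1, so that Pcsk2 exceeded it by 10.5 ± 0.204-fold. Of the 7 other convertase genes, 6 reached 1 TPM in both libraries, the highest being Mbtps1, which activates membrane-bound transcription factors, at 26.5 TPM in replicate 2 and 30.1 TPM in replicate 1. Among 7 other carboxypeptidase genes, 4 reached 1 TPM in both, and the highest, Cpd, had 21.5 TPM in replicate 2 and 24.3 TPM in replicate 1, so Cpe exceeded it by 41.8 ± 1.79-fold. Pam, the enzyme that amidates peptide ends after trimming, had 98.0 TPM in replicate 2 and 106 TPM in replicate 1, or 0.107 ± 0.00136 of Cpe.

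Among 19 genes of dense-core vesicle membranes and release, 17 reached 1 TPM in both libraries. The highest were Rab3a, a small GTPase of secretory vesicles, at 391 TPM in replicate 2 and 378 TPM in replicate 1, and the vesicle membrane proteins Ptprn, at 190 TPM in replicate 2 and 220 TPM in replicate 1, and Ptprn2, at 152 TPM in replicate 2 and 156 TPM in replicate 1. Slc18a2, the monoamine transporter of vesicles, was the lowest, with 1 count in each library. Of 21 peptide and growth factor precursors, 19 reached 1 TPM in both libraries. Cholecystokinin (Cck) led them with 357 TPM in replicate 2 and 384 TPM in replicate 1, ahead of somatostatin (Sst) with 195 TPM in replicate 2 and 187 TPM in replicate 1 and neuropeptide Y (Npy) with 99.1 TPM in replicate 2 and 107 TPM in replicate 1. Galanin (Gal) was the lowest, at 3 counts in each library.

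Markers of the labelled tissue were present. Slc17a7, the glutamate transporter of cortical excitatory neurons, had 643 TPM in replicate 2 and 615 TPM in replicate 1, and 4 further excitatory genes and all 6 inhibitory genes were expressed. Tissues known for high granin levels were hardly represented. The summed TPM of 5 hypothalamic genes was 1.66 in replicate 2 and 1.28 in replicate 1, and that of 5 pituitary genes was 1.31 in replicate 2 and 1.28 in replicate 1. For 4 chromaffin cell genes it was 1.44 in replicate 2 and 1.00 in replicate 1. Gh, Prl and Tshb, which define the pituitary, had 0 counts in both libraries, which allows up to 3 counts in each. In this mixture of cells, more RNA per cell and more cells of a type cannot be told apart.

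The mice differed little in these genes once counts were scaled to library size. Ratios are given as log2 of replicate 2 over replicate 1 of the CPM values (from counts, TMM sizes and a prior count of 2), with a 95% counting interval. Replicate 2 held 35188766 and replicate 1 held 29417186 expected counts, and 12615 genes averaging at least 100 counts, all 10 genes included, were set side by side. Chga had 96.8 CPM in replicate 2 and 83.8 CPM in replicate 1, a log2 ratio of 0.21 (0.13 to 0.28). Chgb followed at 0.16 (0.11 to 0.21) and Cpe at 0.15 (0.13 to 0.17). Scg5 was at 0.09 (0.03 to 0.14), Vgf at 0.09 (0.04 to 0.14), Scg3 at 0.07 (0.02 to 0.12) and Pcsk2 at 0.07 (0.04 to 0.11). For Scg2 the log2 ratio was 0.02 and its interval, from -0.04 to 0.08, held 0. With these library sizes, none of these 8 genes exceeded 1.15-fold. Intervals were not computed over all tested genes, of which 55.1% had a ratio above 0. The signs rest on the scaling: the ratios of deposited TPM were below 0 for 9 of the 10 genes, and those scaled to the spike-ins for all 10.

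Pcsk1n and Pcsk1 were the extremes. Pcsk1n had 334 CPM in replicate 2 and 256 CPM in replicate 1, a log2 ratio of 0.39 (0.34 to 0.43) or 1.31-fold, and 96.6% of the tested genes had a lower ratio. Pcsk1 had 49.7 CPM in replicate 2 and 57.6 CPM in replicate 1, a log2 ratio of -0.21 (-0.31 to -0.12), and was the one gene of the set with more CPM in replicate 1. With these library sizes the ratios of Pcsk1n and Pcsk1 had opposite signs, but scaled to the spike-ins both were below 0 (-0.06 and -0.66), and Pcsk1, at 0.862-fold, was less than 25% apart.

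A gene was called apart between the mice when the higher value exceeded the lower by at least 25%, a rule of size with no test. Of the 10 genes, 1 was apart, as were 12.1% of the tested genes. It was Pcsk1n, higher in replicate 2, as were 5.53% of the tested genes by this rule. None of the 10 was lower in replicate 2 by this rule, against 6.60% of the tested genes. None of the 10 was 2-fold apart, against 0.753% of the tested genes. These shares are near the background, and the median log2 ratio of the 10 genes was 0.09 against 0.02 for the tested genes. A ratio above 0 was found for 9 of the 10 genes and for 55.1% of the tested genes.

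**Figure D2:**
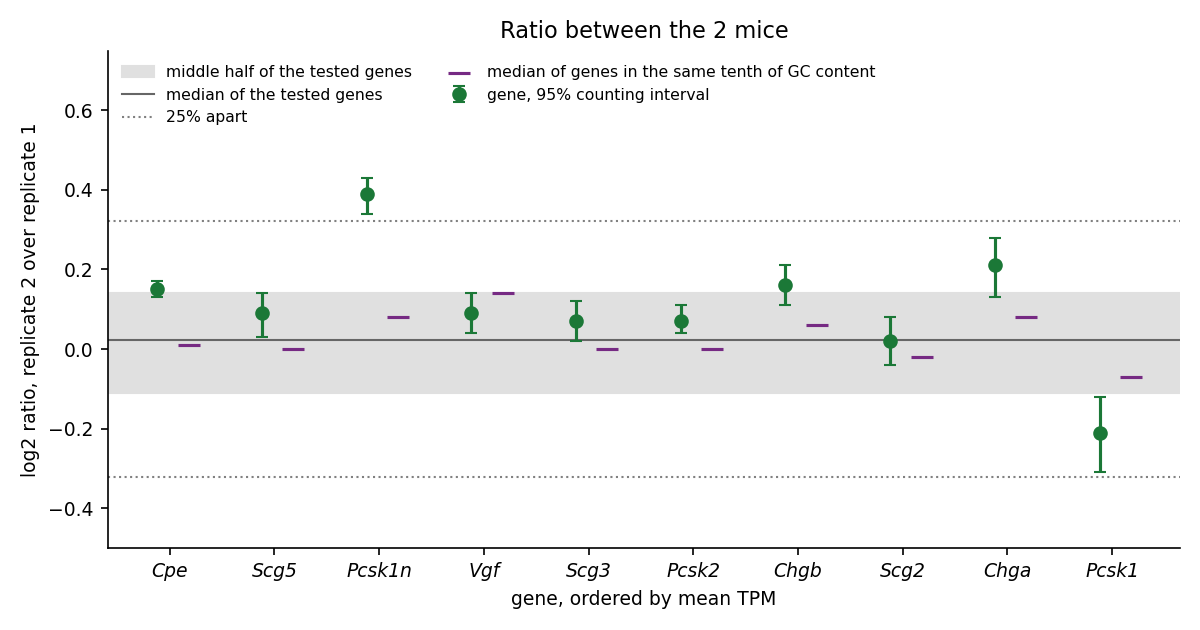
Log2 ratio of replicate 2 over replicate 1 for each gene (points, bars are 95% counting intervals), with the range between the quartiles of the 12615 tested genes shaded, from -0.11 to 0.14, dotted lines at 25% apart and a short bar at the median of genes of like GC content. Pcsk1n alone lies past a dotted line, and Pcsk1 is the only point below 0.

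TPM and CPM gave opposite directions for most of the set. TPM was lower in replicate 2 for 9 of the 10 genes, while the CPM ratio was above 0 for 9. Protein-coding nuclear genes held 41.9% of all TPM in replicate 2 and 46.9% in replicate 1. Of all TPM, 7SL held 30.1% in replicate 2 and 24.3% in replicate 1, and the remaining rows were not broken down. With TPM taken over protein-coding genes alone, Scg2 (210 in replicate 2 and 216 in replicate 1), Scg3 (312 in replicate 2 and 314 in replicate 1) and Pcsk1 (33.9 in replicate 2 and 40.0 in replicate 1) were lower in replicate 2 and the other genes higher. As a log2 ratio of deposited TPM, Pcsk1n was at 0.16 and Pcsk1 at -0.40. Scaled to the ERCC spike-ins, which took 0.461% of counts in replicate 2 and 0.349% in replicate 1, the log2 ratios of all 10 genes were below 0, with Pcsk1n at -0.06 and Pcsk1 at -0.66. The median of the tested genes moved by -0.45 under that scaling, and the median of the 10 genes stayed 0.06 above it.

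Pcsk1n is X-linked and the mice were female. Among 396 tested X-linked protein-coding genes the median log2 ratio was 0.02, and 19 of them, or 4.80%, were at least 25% higher in replicate 2. A higher ratio than that of Pcsk1n was seen in 10 of them.

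Ratios between the mice moved with base composition and with transcript length. Across 10 equal groups of protein-coding genes ordered by the GC content of their leading transcript, the median log2 ratio was -0.07 in the group of lowest GC and 0.14 in that of highest GC. Pcsk1n, with 57.3% GC, lay in a group with a median of 0.08, and 95.4% of that group had a lower ratio. Pcsk1, with 40.6% GC, lay in the lowest group, where 20.5% of genes had a lower ratio. Vgf, the richest in GC of the set at 64.8%, was below the median of its group. With the median of its group taken off, Pcsk1n was at 0.30, short of the rule of 25%. Across 10 groups ordered by the length of the leading transcript, the median log2 ratio was 0.08 in the shortest group and -0.10 in the longest. Pcsk1 lay in group 9 by length, with a median of -0.03, and Pcsk1n in group 4, with 0.05. Ratios were not centred on length. The parts of base composition and length in these ratios were not tested.

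Among the lists of the peptide pathway and of neuronal activity, the immediate early genes had the median farthest from 0. Neurons transcribe these genes within minutes of activity. Of 13 such genes, 12 had a log2 ratio above 0 and 9 were at least 2-fold higher in replicate 2, with a list median of 1.50, and 0.753% of all tested genes were 2-fold apart in either direction. This list was chosen with results of these data known, so the count is a description. Fos had 30.1 TPM in replicate 2 and 10.5 TPM in replicate 1, and Arc had 102 TPM in replicate 2 and 38.6 TPM in replicate 1. Of 12 genes that follow activity later, 1 was at least 25% higher in replicate 2, against 5.53% of all tested genes. By the same rule 2 were lower, against 6.60%, and the list median log2 ratio was 0.04.

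Among the 15 tested precursors, 3 were at least 25% higher in replicate 2, against 5.53% of all tested genes. None was lower by this rule, against 6.60%, and the median log2 ratio of the precursors was 0.11. None of the 5 other convertases averaging at least 100 counts was 25% apart, against 12.1% of all tested genes. Of 17 vesicle genes 2 were higher by that rule, against 5.53% of all tested genes. Of these, Baiap3 was higher by more than 2-fold (log2 ratio 1.38, from 259 counts in replicate 2 and 85 in replicate 1). Markers of neighbouring tissue and of oligodendrocytes also differed between the mice. The summed TPM of 5 choroid plexus genes was 10.1 in replicate 2 and 73.6 in replicate 1, with Ttr at 8.29 TPM in replicate 2 and 70.1 TPM in replicate 1, and none of the 5 was at 0. Of 4 striatal genes, 3 were at least 25% higher in replicate 2, again against 5.53% of all tested genes (summed TPM 26.5 in replicate 2 and 25.2 in replicate 1). The summed TPM of 4 oligodendrocyte genes was 1385 in replicate 2 and 1868 in replicate 1. Deposited TPM of all tested genes had a median log2 ratio of -0.21. From CPM, the oligodendrocyte genes had a median of -0.19, with Mog at -0.00. By that measure 1 of the 4 was at least 25% lower in replicate 2, against 6.60% of all tested genes. The part of these markers in the ratios of the 10 genes was not tested.

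**Figure D3:**
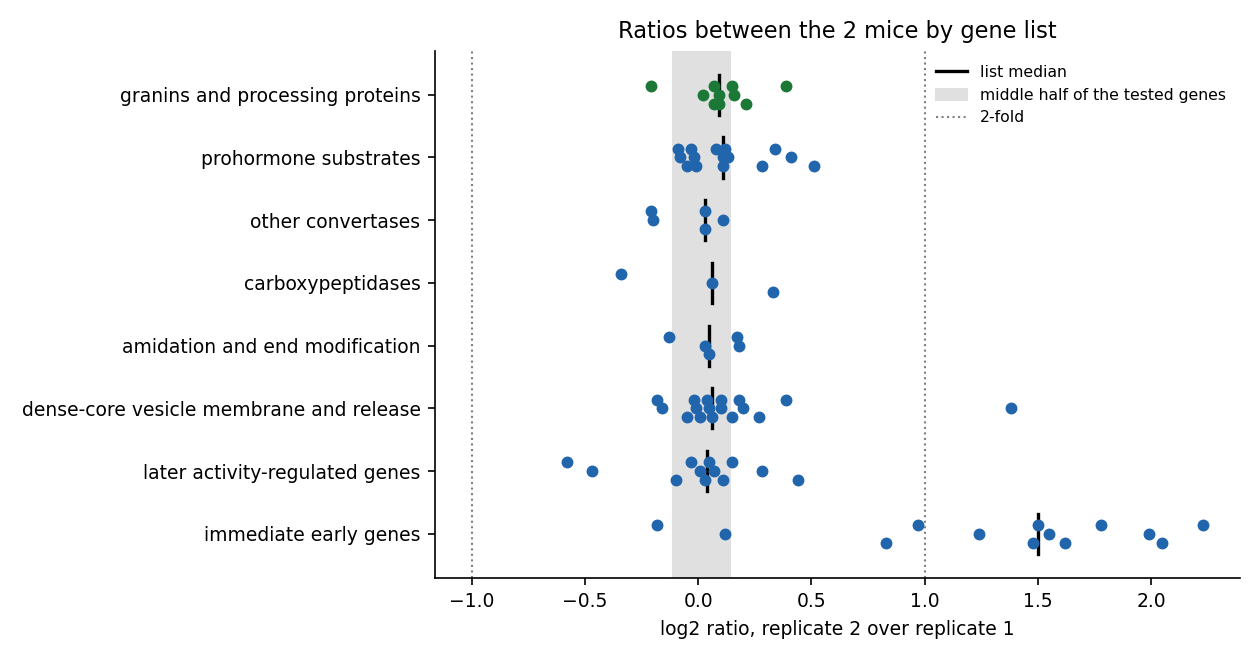
Log2 ratio of replicate 2 over replicate 1 for the genes of each list averaging at least 100 counts (points), the list median (black bars), the range between the quartiles of all tested genes (shaded) and 2-fold (dotted lines). The 10 genes lie between -0.21 and 0.39, while 9 of 13 immediate early genes lie past 2-fold.

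Transcripts were read from both transcript tables. In the first table, 5 of the 8 genes with more than 1 annotated transcript gave at least 95% of their TPM to 1 transcript in both mice, and only Pcsk2 did so in the second table. Chgb and Pcsk1n have 1 transcript each. The leading transcript was the same in both tables for 9 of the 10 genes, among them Chgb and Pcsk1n, where no other outcome was possible. Neither the share rule nor this agreement was computed over all genes.

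Vgf was the exception. Vgf-201 took 80.6% of the gene's TPM in replicate 2 and 79.4% in replicate 1 in the first table, but 13.5% in replicate 2 and 11.4% in replicate 1 in the second. Vgf-204 took 5.45% in replicate 2 and 6.22% in replicate 1 in the first table, and 67.8% in replicate 2 and 74.4% in replicate 1 in the second. Vgf-204 holds all of Vgf-201 and 281 further bases, all before the coding start, and both encode the same 617 residues. What the tables dispute between these models lies before the coding start and does not touch the protein.

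The tables also differed for short models. Cpe-202, a processed transcript without a coding frame, took 0.708% of Cpe in replicate 2 and 1.98% in replicate 1 in the first table, against 19.7% in replicate 2 and 18.6% in replicate 1 in the second. Of its bases, 88.6% are also in the leading transcript. Scg5-202, also a processed transcript, took 1.86% in replicate 2 and 2.23% in replicate 1 in the first table, against 32.8% in replicate 2 and 31.0% in replicate 1 in the second. Only 39.1% of the bases of Scg5-202 are also in its leading transcript, and 361 are not. Scg3-206, a model annotated for nonsense-mediated decay whose bases all lie in the leading transcript, took 0% in replicate 2 and 3.12% in replicate 1 in the first table, against 25.2% in replicate 2 and 21.7% in replicate 1 in the second. In percentage points the mice differed by less than the tables for these models, although in the first table Cpe-202 and Scg3-206 differed several-fold between the mice or were at 0 in replicate 2.

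Scg3 was split between coding transcripts. Scg3-202, which encodes 466 residues, took 71.6% in replicate 2 and 69.9% in replicate 1, and Scg3-201, which encodes 471 residues, took 25.3% in replicate 2 and 24.7% in replicate 1 (first table). Scg3-201 has 15 coding bases that Scg3-202 lacks, and 41 further bases before and 176 after the coding frame.

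Scg2 was divided between coding transcripts, almost evenly in the first table and less evenly in the second. Scg2-201 took 52.9% in replicate 2 and 52.7% in replicate 1 in the first table, and 56.0% in replicate 2 and 59.7% in replicate 1 in the second. Scg2-202 took the rest, 47.1% in replicate 2 and 47.3% in replicate 1 in the first table and 44.0% in replicate 2 and 40.3% in replicate 1 in the second. The proteins differ in length, with 617 residues for Scg2-201 and 577 for Scg2-202. Outside the coding part, Scg2-201 has 78 bases before the coding start that Scg2-202 lacks. The coding difference is 1 stretch of 120 bases, or 40 residues, inside the last exon of Scg2-201. The annotation of Scg2-202 treats this stretch as an intron. It lies at chr1:79435932-79436051 on the minus strand (mm10) and is shown because this stretch alone separates the coding parts of the models, with its first and last pair of bases in capitals.
Scg2-201 stretch absent from Scg2-202: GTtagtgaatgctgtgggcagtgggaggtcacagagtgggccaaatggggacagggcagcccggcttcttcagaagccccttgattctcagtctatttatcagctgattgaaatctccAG

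The stretch opens with GT and closes with AG, the letters found at the ends of most introns, and its length keeps the reading frame. Reads across either junction were not analysed here, so the shares rest on how each quantifier divided the reads.

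**Figure D4:**
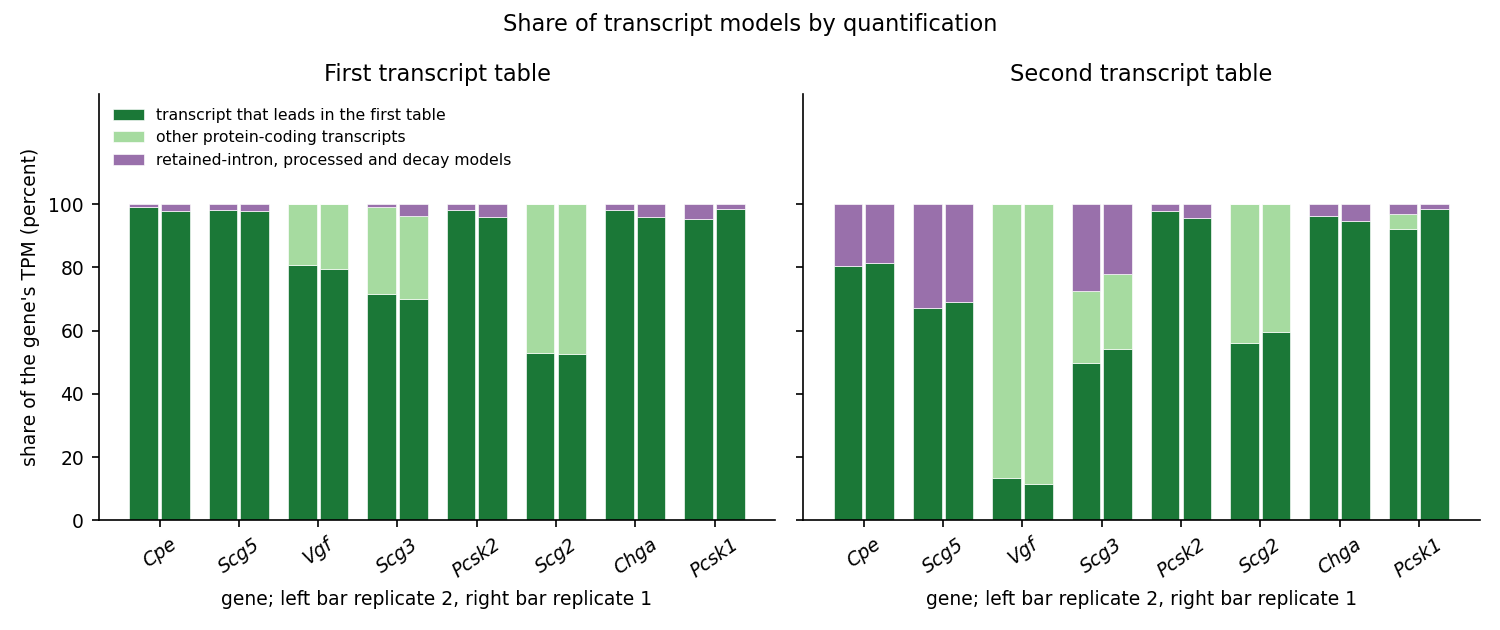
Share of each gene's TPM by kind of transcript in the first (left panel) and second (right panel) transcript table, with replicate 2 as the left bar and replicate 1 as the right bar of each gene. Dark green is the transcript that leads in the first table, light green the other coding transcripts and purple the retained-intron, processed and decay models. The panels differ most for Vgf, Scg5, Scg3 and Cpe, and the bars of the 2 mice are alike within each panel.

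Composition was computed for the encoded proteins. Acidity is a property by which granins are known, so their values describe the family and are no independent finding. Among 12671 expressed protein-coding genes with a complete coding sequence, the median share of aspartate and glutamate was 11.8% of residues. It was 23.2% for Chgb, 21.8% for Chga, 20.3% for Vgf, 20.0% for Scg3 and 19.1% for Scg2, each above at least 96.8% of these proteins. It was 12.6% for Pcsk2, 12.7% for Pcsk1, 14.1% for Cpe, 13.2% for Pcsk1n and 14.6% for Scg5. The granins, Scg3 and Vgf all lay above the other members in this share.

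Pairs of adjacent basic residues were counted in any combination of lysine and arginine, overlapping pairs included. They were most frequent per length in Chgb, which has 23 in 677 residues (3.40 per 100 residues), and in Scg5, which has 7 in 212 residues (3.30). Vgf has 16 pairs (2.59 per 100 residues) and Chga 9 (1.94), against a median of 1.49. The convertase Pcsk2 also has 16 (2.51 per 100 residues), Pcsk1n stood at 1.94, Cpe at 1.68 and Pcsk1 at 1.59, so the frequency of pairs did not separate the granins from the other members. Scg2, at 1.46, and Scg3, at 1.50, were at the median. Pairs ending in arginine numbered 15 in Chgb, 12 in Vgf, 10 in Pcsk2, 9 in Pcsk1 and 8 in Scg2. Chga had 6 of them, Pcsk1n 5, Cpe and Scg5 4 each and Scg3 2. Their frequency per length was not computed. A pair of basic residues in a sequence is no evidence of cleavage there.

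**Figure D5:**
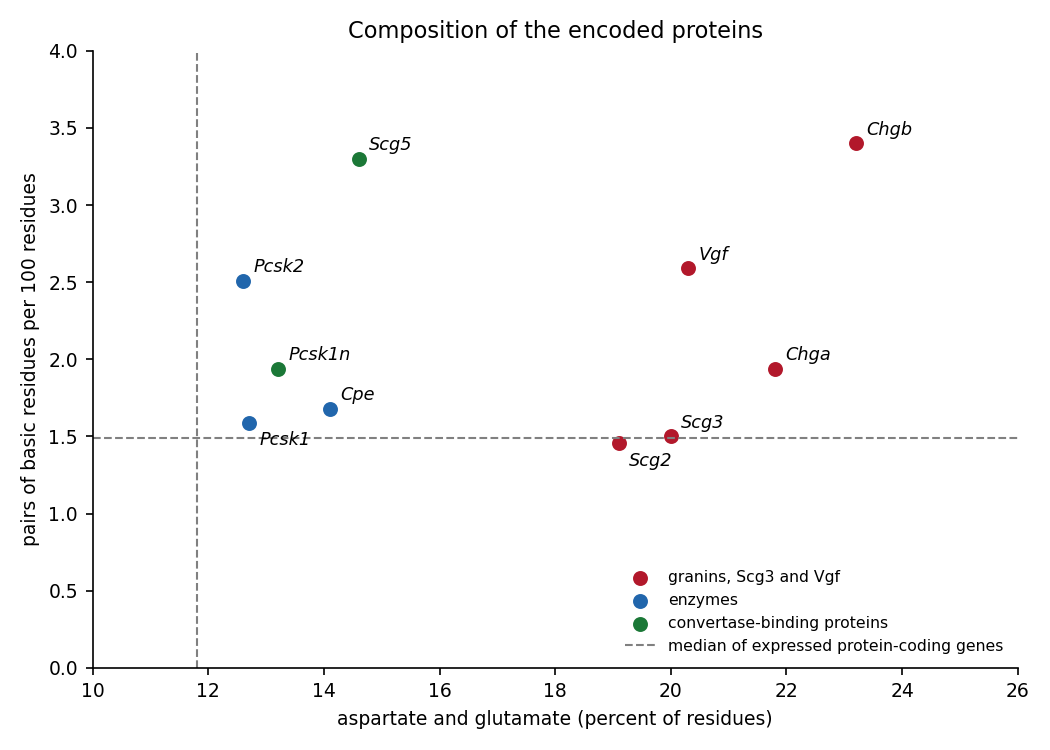
Share of aspartate and glutamate (percent of residues) against pairs of adjacent basic residues per 100 residues for the 10 encoded proteins, with dashed lines at the medians of expressed protein-coding genes, 11.8% and 1.49. The granins, Scg3 and Vgf lie at 19.1% or more, and the enzymes and binding proteins at 14.6% or less.

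Promoter letters shared by the genes were read from RefSeq promoters (GRCm38.p6), which run from 250 bases before to 50 bases after the start and were at hand for 8 of the 10 genes, Vgf and Cpe not among them. The letters searched on both strands were TGACGTCA, the cAMP response element, TGACG, its core, which the full element also contains, and TGAGTCA, the AP-1 site. TGACGTCA was found in 3 of the 8 genes, Chgb, Pcsk1 and Scg2, against 2.03% of 27025 genes with promoters of the same length. The core was found in 7 of the 8, all but Pcsk1n, against 23.0% of genes. TGAGTCA was found in 1, Pcsk1n, against 5.95%. The windows below are shown because the full element sits at nearly the same distance before the start in Scg2 (position -68), Chgb (-72) and Pcsk1 (-78), with the core of Chga (-44) beside them. The element or core is in capitals, 5′ to 3′ on the gene's strand.
Scg2 chr1:79440076-79440105, minus strand: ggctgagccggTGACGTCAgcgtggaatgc
Chgb chr2:132781559-132781588, plus strand: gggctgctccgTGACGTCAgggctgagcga
Pcsk1 chr13:75089768-75089797, plus strand: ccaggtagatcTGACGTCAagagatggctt
Chga chr12:102554886-102554915, plus strand: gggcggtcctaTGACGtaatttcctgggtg

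The windows of Scg2 and Chgb lie before the RefSeq start but inside the first exon of Scg2-201 and Chgb-201 in GENCODE M21, ahead of the coding start. The genes with the full element had log2 ratios between the mice of 0.16 (Chgb), 0.02 (Scg2) and -0.21 (Pcsk1), with no shared direction. A match of letters is a description and no binding was measured in these libraries.

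Some values carry a limit of annotation. Pcsk2 overlaps the opposite-strand genes Pcsk2os1 and Pcsk2os2, the end of Pcsk1n overlaps Eras on the opposite strand, and Scg3 contains an opposite-strand model. The strand setting of the counting is not given in the sources used here, so reads of these partners cannot be told apart. Expected counts of all 10 genes were whole numbers in both libraries.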

How the data were processed

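Total RNA-seq of 2 cortex libraries, 1 for each mouse and both in 1 group, was used as deposited. The authors deposited, per the file headers, expected counts, TPM and FPKM for each gene and, in a first transcript table, for each transcript with its percent share of the gene. A second transcript table, deposited from another quantifier, carries estimated counts and TPM. Per the deposited notes, GENCODE M21 on mm10 served as annotation; the aligner, the settings of each quantifier and all versions were not given in the sources used here. Deposited TPM is scaled over all 81881 rows, spike-ins and small RNAs included. Reads were assigned to the C57BL/6J reference although the mice carry CAST/EiJ alleles, and any loss of reads was not tested.

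From these, levels were taken as TPM (mean and SD over the mice) and gene-to-gene ratios within each library. Ratios between mice came from expected counts rounded to whole numbers, with TMM library sizes over genes averaging at least 10 counts (edgeR 4.0.16, R 4.3.3), a prior count of 2 and 95% Clopper-Pearson intervals. Intervals cover counting error only, as reads carry no molecular identifiers here, and the spread between the mice may be technical. A transcript share is its TPM divided by the summed TPM of the gene. Composition was computed from GENCODE M21 coding sequences, in place of the RefSeq proteins that were planned, and promoters came from RefSeq. The ratio step was tested on simulated counts. Size factors of DESeq2 1.42.0 served as an alternative. Other tools were scipy 1.17.1, pandas 2.3.3, numpy 2.4.6 and matplotlib 3.10.9 under Python 3.11.15. Genes named outside the set are the 3 highest and the lowest of a list, those 2-fold apart at 100 or more counts on average, the fixed ratio pairs and the neighbours in level of Cpe and Pcsk1; not all are given. Baiap3 and Ttr come under this rule. The members and lists were chosen with earlier results of these data known, and Aopep, on the amidation list, had no row by that symbol. FPKM and the alternatives listed in the closing section were tried. The comparisons by GC content, by transcript length and with X-linked genes were added after the data were seen.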

Additional observations from a re-analysis of the deposited data

How the results depend on the processing

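DESeq2 size factors, total counts, a prior count of 0.5 and no filter on low counts left 1 gene at least 25% apart and none 2-fold apart. Spike-in scaling gave 6 of the 10 genes 25% apart, all lower in replicate 2, against 72.3% of all tested genes in either direction. The median log2 ratio of the 10 genes was then -0.36 and Pcsk1n turned to -0.06. The median of all tested genes moved by -0.45 with that scaling. The median of the 10 genes was 0.14 from the second transcript table and -0.14 from deposited TPM. With deposited TPM the median of all tested genes moved by -0.23. The 1 gene of the 10 at least 25% apart was then Pcsk1, lower in replicate 2, against 31.5% of all tested genes in either direction. Centring on genes of like GC content, added after the data were seen, left 0 genes 25% apart, with Pcsk1n at 0.30. The share of all tested genes was not computed for that centring. At least 100 TPM in both libraries was met by 7 genes, by 9 in the second table and over protein-coding genes alone, and by 7 to 8 in a single library. The share of expressed protein-coding genes was 6.29% in the main setting and was not computed for the others, so the counts of 9 have no background. Mean TPM moved by more than 1 SD for all 10 genes with the second table, FPKM or protein-coding scaling. With expected counts, uncorrected for length, 9 further ratios between genes moved by more than 1 SD, among them Cpe to Cpd at 10.7, Cpe to Pcsk2 at 3.04, Pcsk1n to Pcsk1 at 5.58 and Chgb to Chga at 2.31, and Scg5 to Pcsk2 turned to 0.405. No paired analysis was possible because both libraries belong to 1 group. With 2 mice, no spread within a mouse was measured, and leaving out a mouse leaves no ratio between mice.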
